A study of Mus musculus with 9 samples.

Results

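A set of 9 protein-coding genes was far lower in RNA level in MTR4-null than in wild-type (WT) mouse oocytes: Btn1a1, Stk32a, Dclk1, Dydc2, Ccdc109b, Npff, Defb19, Capn2 and Bfsp1. They are 9 of the 23235 gene symbols in the deposited table, and were chosen because they stood among the coding genes with the largest reduction in the MTR4-null nucleus or in the MTR4-null cytoplasm. The label under which they were grouped, transcripts lost in both compartments, held for 5 of them. The other four reached 1 FPKM, the unit explained below, in a single WT compartment, Npff, Defb19 and Capn2 in the nucleus and Bfsp1 in the cytoplasm.

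The groups compared were MTR4-null nuclei (2 libraries), WT nuclei (3 libraries), MTR4-null cytoplasms (2 libraries) and WT cytoplasms (2 libraries), all from oocytes of day 21 mice. Each library was made from 10 nuclei or 10 cytoplasms separated by micromanipulation, and rRNA-depleted total RNA was sequenced. The sources used here do not say how the null allele was made or in which cells it was deleted. The table holds 1 column for each group, in FPKM (a read count per transcript length and per library total), so every value below is the authors' value for a group, with no replicate, error or test, and its depth is unknown. Whether 1 library decides a value was not tested, and less RNA per oocyte cannot be told apart from a smaller share of the RNA.

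MTR4 is an RNA helicase that unwinds nuclear RNA and passes it to the exosome, the complex that degrades RNA from its 3′ end. Its loss is known above all for the accumulation of nuclear RNAs that are normally removed. A growing oocyte at the same time transcribes and stores the mRNA that it will use after transcription stops, so that the level of an oocyte mRNA reflects both synthesis and storage. The genes described here are those at the opposite end from accumulation.

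The transcript of Mtr4 itself, listed as Skiv2l2, stood at 2.91 FPKM in MTR4-null nuclei and 16.2 FPKM in WT nuclei, and at 2.51 FPKM in MTR4-null cytoplasms and 21.6 FPKM in WT cytoplasms. All 18 oocyte markers examined, among them Zp3, Gdf9 and Nobox, reached at least 5 FPKM in at least 1 column, Sohlh1 in the MTR4-null nucleus alone. By 2-fold or more, 3 of the 18 were higher and 0 lower in the MTR4-null nucleus, and 1 was higher and 7 lower in the MTR4-null cytoplasm, among them Gdf9 at -1.04 and Nobox at -1.26. For the 14270 genes that reached 1 FPKM in any column, the median difference between MTR4-null and WT, on the log2(FPKM + 1) scale used throughout, was 0.21 in the nucleus and -0.26 in the cytoplasm. Of these genes, the background for every list below, 12.3% were lower and 23.9% higher by 2-fold or more in the MTR4-null nucleus, and 21.4% were lower and 15.0% higher in the MTR4-null cytoplasm. A pseudocount of 1 understates differences of genes with low values. Small RNAs made up 34.4% of the summed FPKM in MTR4-null cytoplasms and 4.26% in WT cytoplasms. In the nuclei their shares were 51.0% and 55.7%, in the same order of genotypes. The cytoplasmic counts below use the deposited scale. With rescaling to genes other than small RNAs, 1341 genes instead of 3047 were lower in the MTR4-null cytoplasm, and 3023 instead of 2135 higher.

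In the MTR4-null nucleus 8 of the 9 genes were lower by 2-fold or more, against a background of 12.3% of all genes kept, and in the MTR4-null cytoplasm 6 of the 9, against 21.4%. Lower by that much in both compartments were 5 of the 9, against 5.07%. These counts follow from how the genes were chosen and are given only as a description. The median difference of the 9 was -4.17 in the nucleus and -3.72 in the cytoplasm.

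**Figure D1:**
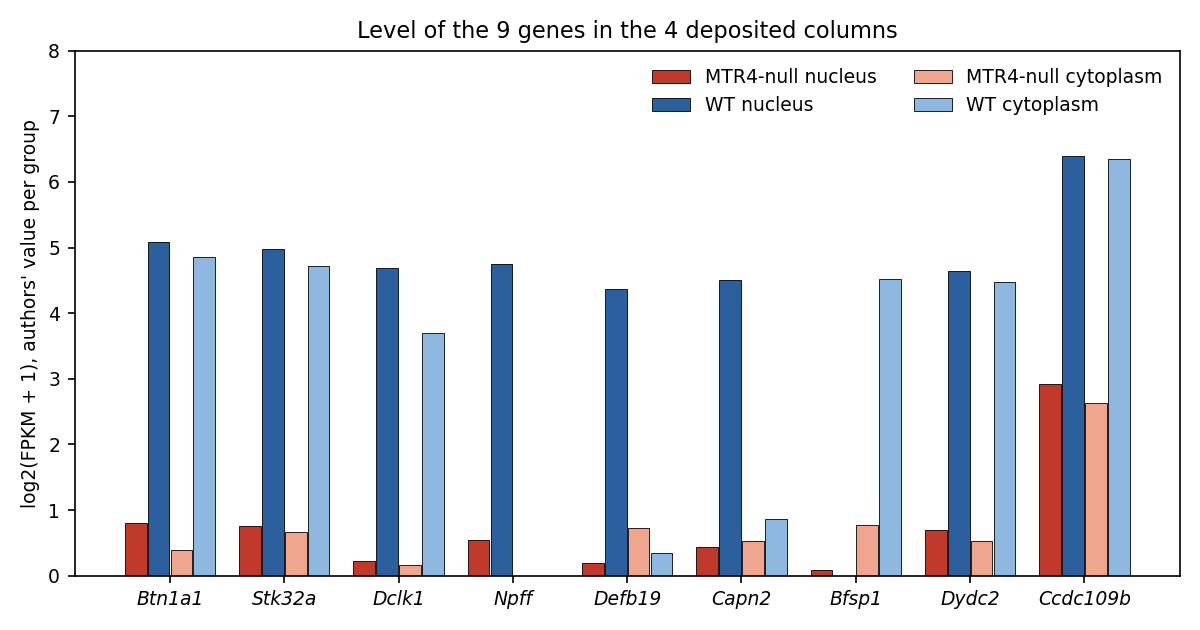
Level of each gene as log2(FPKM + 1) on the y axis, with bars for MTR4-null nucleus, WT nucleus, MTR4-null cytoplasm and WT cytoplasm, 1 authors' value each and no error. The bars are tall for 5 genes in both WT columns, for 3 in the WT nucleus alone and for Bfsp1 in the WT cytoplasm alone, while Ccdc109b is the one gene above 1 FPKM in the MTR4-null columns.

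The 5 genes present in both WT compartments encode proteins with unrelated roles. Btn1a1 encodes a butyrophilin, a membrane protein of the immunoglobulin superfamily best known from the secretion of milk fat. It stood at 0.750 FPKM in MTR4-null nuclei, against 33.0 FPKM in WT nuclei, which is 2.27% of WT. Its cytoplasmic level was 0.313 FPKM in MTR4-null, against 28.0 FPKM in WT, or 1.12% of WT. Its log2 differences of -4.28 in the nucleus and -4.47 in the cytoplasm were the third and the largest reductions among ranked coding genes, those at 5 FPKM or more in the higher of the 2 columns compared (9327 genes in the nucleus and 8582 in the cytoplasm).

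Stk32a and Dclk1 encode protein kinases. Stk32a, which encodes a serine/threonine kinase that has been little studied, stood at 0.684 FPKM in MTR4-null nuclei and 30.4 FPKM in WT nuclei. In the cytoplasm Stk32a stood at 0.579 FPKM in MTR4-null and 25.2 FPKM in WT, so that 2.25% of the WT level was left in the nucleus and 2.30% in the cytoplasm. Dclk1 encodes a doublecortin-like kinase that binds microtubules and is best known from neurons. It stood at 0.164 FPKM in MTR4-null nuclei, against 24.9 FPKM in WT nuclei, and at 0.116 FPKM in MTR4-null cytoplasms, against 12.0 FPKM in WT cytoplasms. Dclk1 thus kept less than 1% of its WT level in both compartments (0.660% in the nucleus and 0.962% in the cytoplasm), the lowest shares of these 5 genes, and of the 5 its WT level differed most between compartments, by 2.07-fold in FPKM.

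Dydc2, which encodes a small protein with a DPY30 motif, stood at 0.613 FPKM in MTR4-null nuclei and 24.003 FPKM in WT nuclei, and at 0.439 FPKM in MTR4-null cytoplasms and 21.3 FPKM in WT cytoplasms. Its log2 difference was -3.95 in the nucleus and -3.96 in the cytoplasm, the most even pair of the 9. Ccdc109b, now named Mcub, encodes the subunit that limits the mitochondrial calcium uniporter. It was the most abundant of the 9 per transcript length, with 6.56 FPKM in MTR4-null nuclei and 82.8 FPKM in WT nuclei, and 5.21 FPKM in MTR4-null cytoplasms and 80.8 FPKM in WT cytoplasms. With 7.93% of WT left in the nucleus and 6.45% in the cytoplasm, Ccdc109b was reduced by the smallest factor of the 5 and was the one member still above 1 FPKM without MTR4. Its WT level was higher than that of 96.0% of coding genes in the nucleus and 95.1% in the cytoplasm.

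The bases before the RefSeq start of 3 of these 5 genes are shown because the genes stand at a like small share of WT in both compartments, and the promoter is where a shared sequence would be looked for. Each run is the 250 bases before the annotated start, 5′ to 3′ on the gene's strand, in GRCm38.p6: Dclk1 at chr3:55242114-55242363, plus strand, Dydc2 at chr14:41073038-41073287, minus strand, and Ccdc109b at chr3:129970207-129970456, minus strand. Capitals mark matches to CCAAT or TAATTG on either strand. Where transcription starts in these oocytes was not measured.
Dclk1: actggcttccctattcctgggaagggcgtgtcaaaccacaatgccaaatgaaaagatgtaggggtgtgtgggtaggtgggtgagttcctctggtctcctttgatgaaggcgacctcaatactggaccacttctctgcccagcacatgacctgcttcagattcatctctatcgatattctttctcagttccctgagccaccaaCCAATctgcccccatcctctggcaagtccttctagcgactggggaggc
Dydc2: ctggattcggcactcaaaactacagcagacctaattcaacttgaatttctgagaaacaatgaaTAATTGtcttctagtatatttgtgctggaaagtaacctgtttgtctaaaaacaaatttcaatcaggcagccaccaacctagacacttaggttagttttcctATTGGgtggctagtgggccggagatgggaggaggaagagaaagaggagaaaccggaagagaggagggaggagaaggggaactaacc
Ccdc109b: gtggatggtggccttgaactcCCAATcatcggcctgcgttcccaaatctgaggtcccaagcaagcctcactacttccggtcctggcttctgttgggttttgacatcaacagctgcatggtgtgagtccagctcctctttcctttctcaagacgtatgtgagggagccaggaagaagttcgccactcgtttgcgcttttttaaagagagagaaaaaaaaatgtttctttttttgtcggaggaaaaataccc

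Each of these 3 windows holds 1 match to CCAAT, and 33.8% of the 32851 windows of this length in the RefSeq table hold at least 1. The Dydc2 window also holds 1 match to TAATTG, a core that the oocyte homeobox factor Nobox can bind, found in 7.17% of all windows. RefSeq gives a second start for Dclk1 and for Dydc2, and neither of those windows holds either sequence. The 5 members in that table have 7 windows. None of the 7 holds the TATA box TATAAA, which 12.4% of all windows hold. None holds the GC box GGGCGG either, found in 32.7% of all windows, nor the Nobox variant TAATTA, found in 4.84%. The E-box CANNTG was found in 5 of the 7 windows and in 66.2% of all windows. These matches are letters in a window, and binding was not measured.

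The 3 genes that reached 1 FPKM in the WT nucleus alone made a second group. Npff encodes the precursor of neuropeptide FF, an RFamide peptide that modulates pain signalling. It stood at 0.452 FPKM in MTR4-null nuclei and 25.9 FPKM in WT nuclei, and was listed at 0 in the cytoplasm of both genotypes. Defb19 encodes a beta defensin, one of a family of small secreted antimicrobial peptides. It stood at 0.146 FPKM in MTR4-null nuclei and 19.6 FPKM in WT nuclei, or 0.745% of WT, and at 0.661 FPKM in MTR4-null cytoplasms and 0.274 FPKM in WT cytoplasms. Capn2 encodes the large subunit of m-calpain, a calcium-dependent protease. It stood at 0.352 FPKM in MTR4-null nuclei and 21.6 FPKM in WT nuclei, and at 0.435 FPKM in MTR4-null cytoplasms and 0.811 FPKM in WT cytoplasms.

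For these 3 genes the genotype difference was therefore one of the nuclear columns: it was -4.21 for Npff, -4.17 for Defb19 and -4.07 for Capn2 in the nucleus. In the cytoplasm it was 0.38 for Defb19 and -0.34 for Capn2. The WT nucleus was the one column of the 4 in which any of them reached 1 FPKM. It is also the group with 3 libraries in the labels, and whether 1 of them carries the signal was not tested. Npff and Defb19 have the shortest transcripts of the 9, at 446 and 394 bases, while the Capn2 transcript has 3225 bases.

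Bfsp1 showed the reverse arrangement. It encodes filensin, an intermediate filament protein of the eye lens. The gene stood at 0.711 FPKM in MTR4-null cytoplasms and 21.9 FPKM in WT cytoplasms, a difference of -3.74, with 3.25% of WT left. In the nucleus it stood at 0.0666 FPKM in MTR4-null and was listed at 0 in WT. An exact 0 in a table without counts can be a failed estimate, so no fold is given.

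The same windows of Capn2 and Bfsp1 are shown beside those above because these 2 genes were lower in 1 compartment only. They lie at chr1:182517611-182517860, minus strand and chr2:143863174-143863423, minus strand in GRCm38.p6, with capitals as above.
Capn2: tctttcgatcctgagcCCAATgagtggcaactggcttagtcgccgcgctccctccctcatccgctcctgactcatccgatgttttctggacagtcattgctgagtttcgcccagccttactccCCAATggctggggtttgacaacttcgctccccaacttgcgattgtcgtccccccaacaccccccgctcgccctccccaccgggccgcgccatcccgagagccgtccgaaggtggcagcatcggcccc
Bfsp1: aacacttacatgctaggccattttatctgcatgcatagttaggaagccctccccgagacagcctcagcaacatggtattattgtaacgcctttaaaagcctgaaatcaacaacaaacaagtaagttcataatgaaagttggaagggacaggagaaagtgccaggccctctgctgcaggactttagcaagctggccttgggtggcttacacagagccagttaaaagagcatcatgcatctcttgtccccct

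Capn2 has 2 matches to CCAAT and Bfsp1 has none. The windows differ in base composition, with 62.8% G and C and 19 CpG dinucleotides for Capn2, and 46.4% and 2 for Bfsp1. The median over all windows is 52.4% and 6 CpG. Among the 3 windows shown first, CpG dinucleotides numbered 4 in Dclk1, 3 in Dydc2 and 8 in Ccdc109b, so that Capn2 was the window with the most CpG of the 5 shown.

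**Figure D2:**
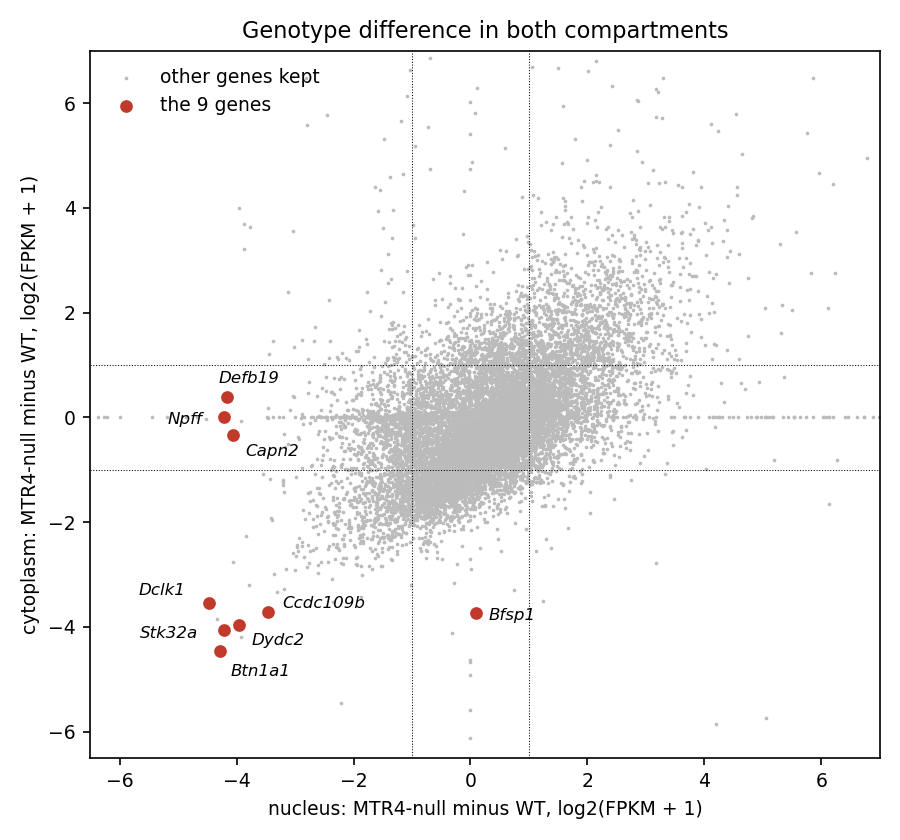
Difference between MTR4-null and WT in the nucleus (x axis) and in the cytoplasm (y axis), both on log2(FPKM + 1), for 14201 of 14270 genes, since 69 lie outside the axes. Dotted lines mark 2-fold. Of the 9 genes (red), 5 lie in the lower left, Npff, Defb19 and Capn2 at the left near a cytoplasmic difference of 0, and Bfsp1 at the bottom near a nuclear difference of 0.

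Other coding genes stood between the members in the order of reduction, so the 9 are not a closed group. In the nucleus the members held places 2 to 7, 9 and 16. Cox7a1, a subunit of cytochrome c oxidase, held the first place with 0.444 FPKM in MTR4-null and 32.2 FPKM in WT, and Il17b, a cytokine gene, the eighth with 1.24 and 36.2 FPKM in the same groups. Just after Ccdc109b came Gphb5, at 0.296 FPKM in MTR4-null nuclei and 13.3 FPKM in WT nuclei, with a difference of -3.47, equal to that of Ccdc109b to 2 decimals. In the cytoplasm the members held places 1 and 3 to 7. The histone gene Hist2h2ac took the second, at 5.14 FPKM in MTR4-null and 112 FPKM in WT. Just outside the members stood Bcat2, which encodes a branched-chain aminotransferase of mitochondria, at 1.32 FPKM in MTR4-null cytoplasms and 25.3 FPKM in WT cytoplasms, with a difference of -3.50 beside -3.55 for Dclk1.

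These patterns can also be described by a count of coding genes at 10 FPKM or more in some columns and under 1 FPKM in all the others. The limits were set after the values were seen. The members were chosen on the same values, so their share of these counts follows from that choice. Of 20231 coding genes, 17 were high in both MTR4-null columns and under 1 FPKM in both WT columns, and 6 had the mirror pattern, high in both WT columns alone. Btn1a1, Stk32a, Dclk1 and Dydc2 are 4 of these 6, and Dcpp2 and A430084P05Rik are the others. High in the MTR4-null nucleus alone were 4 genes, against 10 in the WT nucleus alone, among them Npff, Defb19 and Capn2. High in the MTR4-null cytoplasm alone were 0 genes, and in the WT cytoplasm alone 1 gene, Bfsp1. Ccdc109b, above 1 FPKM in every column, is in none of these counts.

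**Figure D3:**
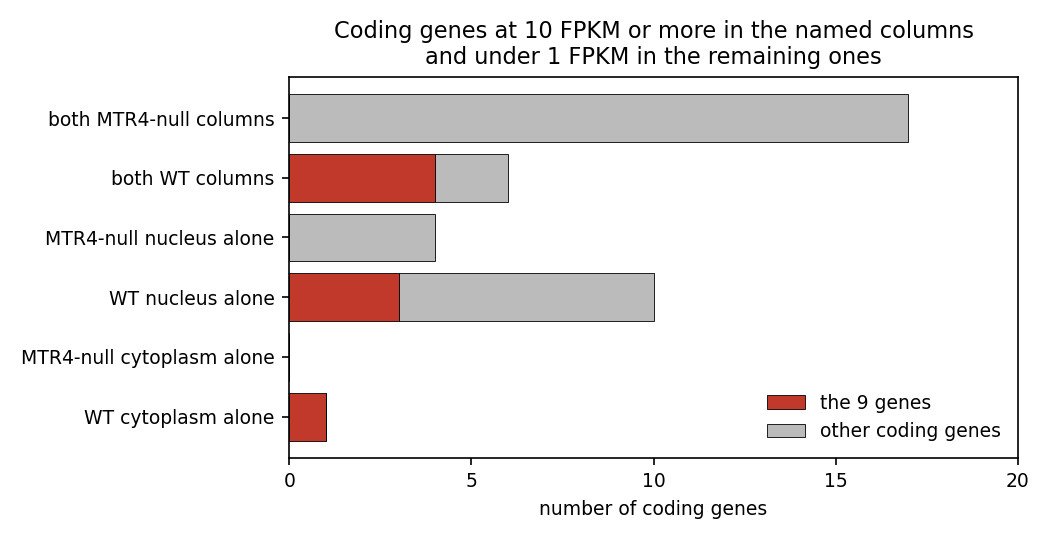
Number of coding genes (x axis) at 10 FPKM or more in the columns named on the y axis and under 1 FPKM in the remaining ones, with the 9 genes in red. Both MTR4-null columns have 17 such genes, and both WT columns have 6, of which 4 are members.

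Beyond Npff, Defb19 and Capn2, the genes high in the WT nucleus alone were Cox7a1, Fasl, Gphb5, Olfr262, Tnfrsf13c, Actn2 and Wfdc2. Actn2, which encodes an alpha-actinin of muscle, stood at 0.412 FPKM in MTR4-null nuclei and 10.4 FPKM in WT nuclei. Fasl encodes the death ligand of cytotoxic lymphocytes, and was under 1 FPKM in MTR4-null nuclei, against 15.6 FPKM in WT nuclei.

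Between compartments, the 5 genes present in both were all slightly higher in the WT nucleus. Their nucleus minus cytoplasm difference ran from 0.04 for Ccdc109b to 0.99 for Dclk1, and none was apart by 2-fold or more on the log2(FPKM + 1) scale. Npff, Defb19 and Capn2 were higher by 2-fold or more in the WT nucleus, and Bfsp1 was lower by 2-fold or more. The shares of all genes kept were 12.4% higher and 4.71% lower. For Npff and Bfsp1 the lower of the WT values was listed at 0, which can be a failed estimate. In MTR4-null oocytes none of the 9 was apart by 2-fold or more between nucleus and cytoplasm, with differences from -0.68 for Bfsp1 to 0.54 for Npff, while 17.0% of all genes kept were higher in the nucleus and 1.84% lower. At levels under 1 FPKM, where 8 of the 9 stood, this scale leaves little room for a difference.

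The coding genes nearest to the members' median level in each column were found by the distance on log2(FPKM + 1) over the 4 columns. That level was 0.452, 24.9, 0.439 and 21.3 FPKM in MTR4-null nucleus, WT nucleus, MTR4-null cytoplasm and WT cytoplasm. It is high in both WT columns, as 5 of the 9 genes were, and is unlike Npff, Defb19, Capn2 and Bfsp1. The nearest was H2-Aa, a chain of the MHC class II molecule, at a distance of 1.15. It stood at 1.31 FPKM in MTR4-null nuclei and 31.0 FPKM in WT nuclei, and at 1.63 FPKM in MTR4-null cytoplasms and 23.1 FPKM in WT cytoplasms. Dcpp2, which encodes a secreted salivary protein, followed at 1.20, with 0.323 FPKM in MTR4-null nuclei and 12.0 FPKM in WT nuclei, and 0.402 FPKM in MTR4-null cytoplasms and 13.1 FPKM in WT cytoplasms. The next 8 were A430084P05Rik, Bicc1, Slc6a15, A630095E13Rik, Nrcam, Rbm44, Il17b and Pla2g4e, at distances of 1.23 to 1.62. Bicc1, an RNA-binding protein gene known from embryo patterning, stood at 1.82 FPKM in MTR4-null nuclei and 13.6 FPKM in WT nuclei, and at 1.35 FPKM in MTR4-null cytoplasms and 18.9 FPKM in WT cytoplasms. Rbm44, an RNA-binding protein gene of germ cells, stood at 2.39 FPKM in MTR4-null nuclei and 29.0 FPKM in WT nuclei, and at 1.70 FPKM in MTR4-null cytoplasms and 19.1 FPKM in WT cytoplasms.

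The distances also separate the members. Btn1a1 and Stk32a were the closest pair, at 0.33, followed by Stk32a and Dydc2 at 0.43, Btn1a1 and Dydc2 at 0.61, and Defb19 and Capn2 at 0.61. The member nearest to Ccdc109b was Stk32a, at 3.65, and the one nearest to Bfsp1 was Dydc2, at 4.69.

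Markers of other cells were looked at beside these values, since H2-Aa and Fasl are known from immune cells and the oocyte grows among granulosa cells. Of 16 leukocyte markers, a list chosen after the values were seen, none exceeded 1.98 FPKM in any column. They summed to 3.12 FPKM in MTR4-null nuclei and 1.40 FPKM in WT nuclei, and to 6.22 FPKM in MTR4-null cytoplasms and 0.925 FPKM in WT cytoplasms. In WT nuclei the highest of the 16 was Cd79a, at 0.423 FPKM. H2-Ab1, which encodes the partner chain of H2-Aa, and Ptprc, the common leukocyte antigen, were among those listed at 0 in WT nuclei. H2-Aa and Fasl themselves are not in that list, and the part of immune cell RNA in the values was not tested.

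Granulosa cell markers differed in both directions. Of the 18 of 20 kept, 6 were higher by 2-fold or more and 4 lower by 2-fold or more in the MTR4-null nucleus, and 0 were higher and 2 lower in the MTR4-null cytoplasm, beside 23.9%, 12.3%, 15.0% and 21.4% of all genes kept in the same order. The 20 summed to 133 FPKM in MTR4-null nuclei and 161 FPKM in WT nuclei, and to 95.1 FPKM in MTR4-null cytoplasms and 156 FPKM in WT cytoplasms. Of these sums Serpine2 alone gave 64.8 and 72.8 FPKM in the nuclei and 44.3 and 89.2 FPKM in the cytoplasms, in the same order. Inhba and Inhbb, which encode inhibin and activin subunits, were the markers lower by 2-fold or more in both compartments, as 5 of the 9 genes were. Inhba stood at 0.604 FPKM in MTR4-null nuclei and 5.001 FPKM in WT nuclei, and at 0.233 FPKM in MTR4-null cytoplasms and 3.35 FPKM in WT cytoplasms. Inhbb stood at 0.826 FPKM in MTR4-null nuclei and 7.90 FPKM in WT nuclei, and at 0.668 FPKM in MTR4-null cytoplasms and 3.86 FPKM in WT cytoplasms. Amh, a defining marker, went opposite ways, with 1.44 FPKM in MTR4-null nuclei and a listing at 0 in WT nuclei, and 1.10 FPKM in MTR4-null cytoplasms and 2.36 FPKM in WT cytoplasms. Cyp11a1 stood at 1.47 FPKM in MTR4-null nuclei and 21.3 FPKM in WT nuclei, and at 2.34 FPKM in MTR4-null cytoplasms and 3.92 FPKM in WT cytoplasms. The part of granulosa RNA in the values of the 9 genes was not tested.

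Position on the chromosome was not used to choose the genes, and the values of their neighbours are given as a description. The 9 genes lie on 7 chromosomes, with Dclk1 and Ccdc109b on chromosome 3 and Defb19 and Bfsp1 on chromosome 2. The nearest coding gene with a row in the table on each side, and any coding gene overlapping a member, gave 19 neighbours in the RefSeq order, of which 14 reached 1 FPKM in at least 1 column. In the nucleus 3 of these 14 were lower by 2-fold or more and 3 higher by 2-fold or more in MTR4-null, with a median difference of -0.12, beside 12.3% and 23.9% of all genes kept. In the cytoplasm 9 were lower and 3 higher, beside 21.4% and 15.0% of all genes kept, with a median of -1.21, where the median of all genes was -0.26.

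Dydc2 and Btn1a1 had a neighbour of their own family that was lower too. Dydc1, the paralogue of Dydc2, stood at 0.0913 FPKM in MTR4-null nuclei and 10.7 FPKM in WT nuclei, and at 0.0121 FPKM in MTR4-null cytoplasms and 2.82 FPKM in WT cytoplasms. Dydc1 and Dydc2 overlap on opposite strands of chromosome 14 and the sources used here do not say whether counting used strand, so their reads cannot be told apart. Dydc1 is among the neighbours counted above as lower by 2-fold or more in both compartments, and those counts may hold reads of Dydc2. On the outer sides of the pair, 5730469M10Rik, now named Prxl2a, stood at 0.585 FPKM in MTR4-null nuclei and 3.76 FPKM in WT nuclei, and at 0.992 FPKM in MTR4-null cytoplasms and 7.78 FPKM in WT cytoplasms. Mat1a, which encodes methionine adenosyltransferase, stood at 8.23 FPKM in MTR4-null nuclei and 16.5 FPKM in WT nuclei, and at 6.02 FPKM in MTR4-null cytoplasms and 20.8 FPKM in WT cytoplasms. All 4 genes at this place were thus lower in both MTR4-null columns, Mat1a by less than 2-fold in the nucleus on the log2(FPKM + 1) scale.

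Btn2a2, a butyrophilin gene next to Btn1a1, stood at 2.19 FPKM in MTR4-null nuclei and 10.0 FPKM in WT nuclei, and at 1.21 FPKM in MTR4-null cytoplasms and 4.26 FPKM in WT cytoplasms. On the other side of Btn1a1, Abt1, which encodes a nuclear protein that activates basal transcription, went the opposite way, with 97.6 FPKM in MTR4-null nuclei and 18.5 FPKM in WT nuclei, and 43.5 FPKM in MTR4-null cytoplasms and 7.08 FPKM in WT cytoplasms. Next to Capn2, Trp53bp2, which encodes a p53-binding protein that promotes apoptosis, was also higher, with 7.73 FPKM in MTR4-null nuclei and 0.0918 FPKM in WT nuclei. In the cytoplasm Trp53bp2 stood at 9.20 FPKM in MTR4-null and 0.445 FPKM in WT. Low Capn2 and high Trp53bp2 thus stood side by side in the MTR4-null nucleus.

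Around the remaining members the nuclear differences of neighbours were mostly smaller. Tarbp2, which encodes a partner of Dicer and lies next to Npff, stood at 40.5 FPKM in MTR4-null nuclei and 45.0 FPKM in WT nuclei, and Atf7 on the other side at 4.05 and 4.41 FPKM in the same groups. Npff, at 0.452 FPKM in MTR4-null and 25.9 FPKM in WT, was therefore lower between 2 neighbours that differed by 0.15 or less on the log2 scale. Sec24b, next to Ccdc109b, differed by 0.23 in the nucleus and -0.46 in the cytoplasm. Casp6, on the other side, stood at 3.23 FPKM in MTR4-null nuclei and 1.71 FPKM in WT nuclei. Dstn, which encodes an actin-depolymerizing protein and lies next to Bfsp1, stood at 9.19 FPKM in MTR4-null cytoplasms and 34.2 FPKM in WT cytoplasms. Sohlh2, a germ cell transcription factor gene next to Dclk1, stood at 4.80 FPKM in MTR4-null nuclei and 1.31 FPKM in WT nuclei, and at 1.04 FPKM in MTR4-null cytoplasms and 3.84 FPKM in WT cytoplasms. Ppp2r2b and Dpysl3, beside Stk32a, were lower by 2-fold or more in the cytoplasm and not in the nucleus, with differences of -1.53 and -1.17 in the cytoplasm and -0.62 and 0.49 in the nucleus. The defensin genes beside Defb19, Defb21 and Defb45, were listed at 0 in all 4 columns.

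**Figure D4:**
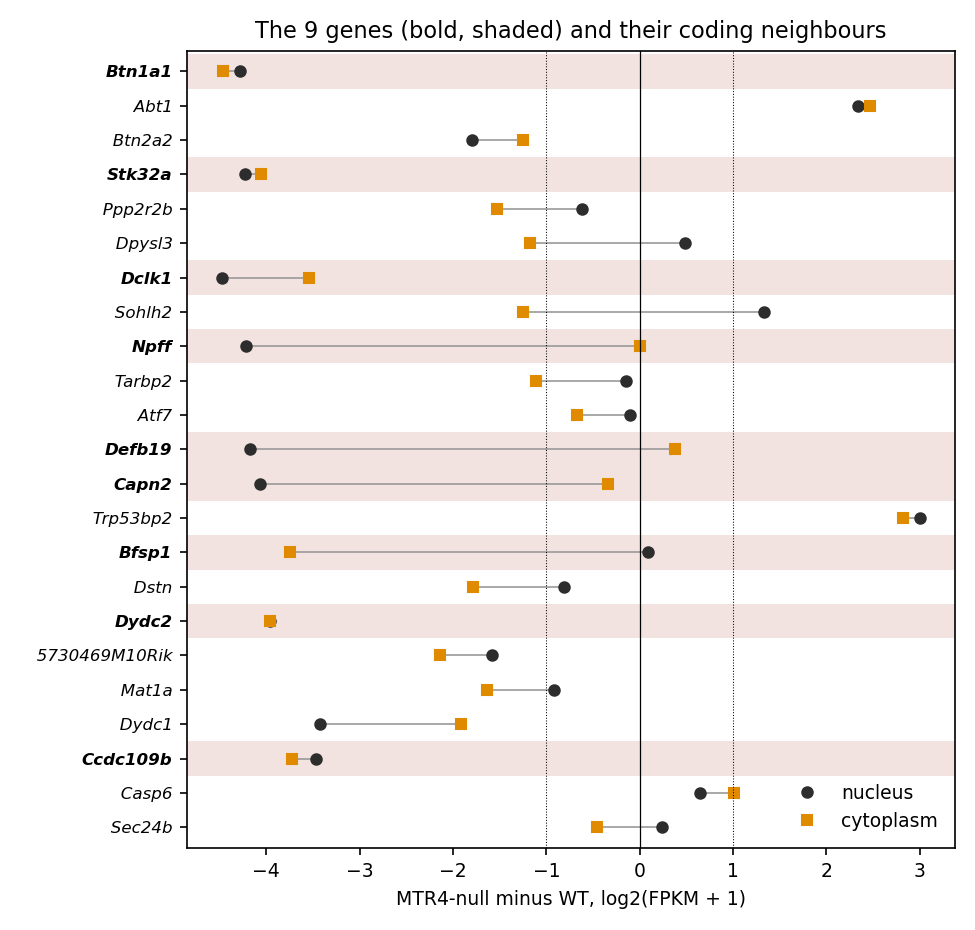
Difference between MTR4-null and WT on log2(FPKM + 1) (x axis) in the nucleus (circles) and the cytoplasm (squares) for the 9 genes, in bold on shaded rows, and below each its coding neighbours at 1 FPKM or more in at least 1 column. Dotted lines mark 2-fold. Dydc1, Btn2a2 and 5730469M10Rik lie left of -1 in both compartments, while Abt1 and Trp53bp2 lie right of 1.

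Lists of relatives of the 9 genes were drawn up by family or complex, with earlier results of these data known. They gave 106 genes in the table, of which 53 were kept. Among these 53, 11 were lower by 2-fold or more and 15 higher in the MTR4-null nucleus, with a median of 0.38, beside 12.3% and 23.9% of all genes kept. In the cytoplasm 16 were lower and 10 higher in MTR4-null, with a median of -0.50, beside 21.4% and 15.0%. The single families below hold few genes, and their counts are to be read against these same shares. The largest reduction among the relatives of 5 FPKM or more was that of Dydc1 in the nucleus, at -3.42, beside -3.95 for Dydc2.

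Dclk2, the closest relative of Dclk1 with a like kinase and doublecortin arrangement, was abundant in both genotypes, at 151 FPKM in MTR4-null nuclei and 145 FPKM in WT nuclei, and at 104 FPKM in MTR4-null cytoplasms and 181 FPKM in WT cytoplasms. The low values of Dclk1 were thus not shared by Dclk2. Stk32c stood at 24.4 FPKM in MTR4-null nuclei and 39.9 FPKM in WT nuclei, and at 9.36 FPKM in MTR4-null cytoplasms and 48.6 FPKM in WT cytoplasms. Stk32b, the other kinase of that family, differed by -0.53 in the nucleus and -1.63 in the cytoplasm. Stk32a, with -4.22, was therefore lower in the nucleus, where both its relatives differed by less than 2-fold. Of the butyrophilin list, Btn2a2 and Mog reached 5 FPKM. Mog, which encodes a myelin protein, was higher in MTR4-null, at 23.9 FPKM against 5.99 FPKM in WT in the nucleus and 7.84 FPKM against 1.87 FPKM in WT in the cytoplasm.

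The mitochondrial calcium genes related to Ccdc109b differed in both directions. The pore subunit gene Ccdc109a, now named Mcu, stood at 17.3 FPKM in MTR4-null nuclei and 55.0 FPKM in WT nuclei, and at 15.1 FPKM in MTR4-null cytoplasms and 60.0 FPKM in WT cytoplasms. Efha1, now named Micu2 and a calcium-sensing regulator of the pore, stood at 13.7 FPKM in MTR4-null nuclei and 32.9 FPKM in WT nuclei, and at 13.5 FPKM in MTR4-null cytoplasms and 32.6 FPKM in WT cytoplasms. On the deposited scale Ccdc109b, Ccdc109a and Efha1 were thus lower by 2-fold or more in both compartments. Of these, Efha1 lay nearest to 2-fold, at -1.21 in both compartments. The gene of the small linker subunit, 1500032L24Rik, now named Smdt1, differed by 1.10 in the nucleus and -0.28 in the cytoplasm. For Ccdc90a, now named Mcur1, these differences were -0.38 and -1.57. The channel genes of the outer membrane, Vdac1, Vdac2 and Vdac3, were within 2-fold in both compartments apart from Vdac3 in the cytoplasm, at 63.1 FPKM in MTR4-null and 131 FPKM in WT. Of the 10 list members kept besides Ccdc109b, 2 were lower and 2 higher in the nucleus, and 4 were lower and 1 higher in the cytoplasm.

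The calpain genes other than Capn2 differed in both directions. Of 9 relatives kept, 2 were lower and 3 higher in the MTR4-null nucleus, and 1 was lower and 2 higher in the MTR4-null cytoplasm. Capns1, which encodes the small subunit that pairs with Capn2, stood at 65.8 FPKM in MTR4-null nuclei and 35.0 FPKM in WT nuclei, and at 25.1 FPKM in MTR4-null cytoplasms and 35.8 FPKM in WT cytoplasms. Cast, the gene of the calpain inhibitor calpastatin, was higher in MTR4-null, at 8.82 FPKM in MTR4-null nuclei and 0.236 FPKM in WT nuclei, and at 8.95 FPKM in MTR4-null cytoplasms and 2.48 FPKM in WT cytoplasms. Solh, now named Capn15, was higher as well, at 18.4 FPKM in MTR4-null nuclei and 3.84 FPKM in WT nuclei. Capn7, a calpain linked to membrane sorting, was lower, with differences of -1.07 in the nucleus and -1.74 in the cytoplasm. Capn1, Capn10 and Capn12 differed by 0.71, 0.80 and 1.02 in the nucleus.

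Beside Defb19 the table holds 43 beta defensin genes. Of these, 27 were listed at 0 in all 4 columns and 11 reached 1 FPKM, of which 4 were lower and 3 higher in the MTR4-null nucleus, and 4 lower and 4 higher in the MTR4-null cytoplasm. Defb1 had the pattern of Defb19 at a lower level, with 0.135 FPKM in MTR4-null nuclei and 3.85 FPKM in WT nuclei, and was chosen after its value was seen. Defb13, Defb8, Defb23 and Defb50 were above 5 FPKM in an MTR4-null column. Defb8 stood at 6.49 FPKM in MTR4-null nuclei and was listed at 0 in WT nuclei, and Defb13 stood at 15.1 FPKM in MTR4-null cytoplasms and was listed at 0 in WT cytoplasms. Defensin genes are short and near-identical copies occur among them, so that these values are uncertain.

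The receptor for neuropeptide FF that was measurable, Npffr2, stood at 13.9 FPKM in MTR4-null nuclei and 5.58 FPKM in WT nuclei, and at 5.14 FPKM in MTR4-null cytoplasms and 10.1 FPKM in WT cytoplasms. Npffr1 was listed at 0 in all columns. Of the intermediate filament genes listed beside Bfsp1, 12 were kept, with 1 lower in the MTR4-null cytoplasm and 2 higher. The lower one was Lmna, which encodes lamins A and C, at 37.5 FPKM in MTR4-null and 90.8 FPKM in WT, and the higher ones were Lmnb2, by 1.44, and Nes, by 2.44. Bfsp2, the lens partner of Bfsp1, did not reach 5 FPKM in any column. In the nucleus 5 of the 12 were higher and 0 lower, among them Ina at 1.67 and Nes at 3.76.

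The 9 genes vary widely in structure. Their longest coding transcripts in the GENCODE M21 annotation ran from 394 to 7962 bases with a median of 2372, beside a median of 3039.5 bases over the coding genes kept. They had 2 to 21 exons with a median of 8, beside a median of 9, and 45.4% to 58.2% G and C with a median of 51.8%, where the quartiles of the coding genes kept were 45.3% and 54.8%. The members with the highest share of G and C were Bfsp1 at 58.2% and Npff at 57.2%, and the lowest was Dydc2 at 45.4%.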

How the data were processed

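Per the labels' protocols, total RNA was depleted of rRNA, and libraries of size-selected cDNA were read as paired ends. The authors deposited 1 table of FPKM with 4 columns, 1 per group. TopHat2 2.1.1, Cufflinks 2.2.1 and mm9 are named in the submitters' processing notes, without settings. The number of libraries behind each column is uncertain, and a final row without a gene name, equal to the column sums, was left out. Differences were taken on log2(FPKM + 1), and genes at 1 FPKM or more in at least 1 column were kept. With no replicates no test was run, and 2-fold calls are descriptions. On simulated columns of 8281 genes for the nuclear genotype comparison, with little noise assumed, the call found 100 of 100 genes planted 4-fold lower, 100 of 100 planted 4-fold higher and 0 of 8081 others. With these settings that outcome was fixed in advance. It checks the arithmetic only and gives no error rate for calls in the deposited columns. The 9 genes, the lists and the rules for named genes were chosen with earlier results of these data known. Named were the members, relatives at 5 FPKM or more in a column, the coding neighbours on each side, the 10 genes nearest in pattern, genes adjacent in rank and Skiv2l2, and other genes were chosen after their values were seen. Of the genes so chosen, 2 are not reported here. Of 23235 symbols, 22980 matched RefSeq (GRCm38.p6) by symbol or synonym, used for names, gene order and promoter windows. Python 3.11.15, pandas 2.3.3 and numpy 2.4.6 were used. Alternatives were 2 pseudocounts, 2 filters and 4 scalings.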

Additional observations from a re-analysis of the deposited data

Results flagged for a closer look

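In 8 of the 72 members, neighbours, relatives and other named genes looked at, the genotype difference had opposite signs in nucleus and cytoplasm and reached 2-fold in at least 1 of them. Of all 14270 genes kept, 12.5% met the same description. The difference between compartments was not tested, and the medians of all genes, 0.21 in the nucleus and -0.26 in the cytoplasm, already lie on opposite sides of 0. Among the 9 genes these were Defb19, with -4.17 in the nucleus and 0.38 in the cytoplasm (nucleus minus cytoplasm -4.55), and Bfsp1, with 0.09 and -3.74 (3.83). Among neighbours they were Sohlh2, with 1.33 and -1.25 (2.57), and Dpysl3, with 0.49 and -1.17 (1.66). Among relatives they were Npffr2 (2.04), Ina (1.80), Nefh (1.56) and 1500032L24Rik (1.38). In Defb19 the cytoplasmic values are under 1 FPKM in both genotypes, and in Bfsp1 the nuclear ones are. Both differences were also centred on the median of all genes, an alternative chosen after the data were seen. Of all 14270 genes kept, 11.1% then met the description. Of the 8 genes, Defb19 (-4.38 and 0.65) and Sohlh2 (1.12 and -0.98) still met it. The other six did not: Bfsp1 (-0.11 and -3.48) and Ina (1.47 and 0.13) then had the same sign in both compartments, and the rest fell short of 2-fold.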

How the results depend on the processing

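No paired analysis was possible because the table has 1 column per group and no single libraries, and for the same reason no replicate could be left out. Under all 8 alternatives the number of the 9 genes lower by 2-fold or more was 8 in the MTR4-null nucleus and 6 in the MTR4-null cytoplasm. The genes were chosen for large reductions, so these numbers had little room to change. Of 144 values of single genes under these alternatives, 125 moved by less than 1.5-fold, 19 moved by more, all under a smaller pseudocount, and no difference of 2-fold or more changed sign. The 2 filters only remove genes and could not move any of these values. Nor could centring on the median of all genes, since the medians of 0.21 and -0.26 are shifts under 1.5-fold. The small nuclear difference of Bfsp1, 0.09, turned to -0.11 with centring on the median of all genes. With a pseudocount of 0.1 the median difference of the 9 was -5.28 in the nucleus and -4.76 in the cytoplasm. Defb19 then reached 1.03 in the cytoplasm. The background depended more on scaling. Lower in the MTR4-null cytoplasm were 3047 genes as deposited (2135 higher), 1108 (3156 higher) with centring by the median log ratio, 1854 (2792 higher) with centring on the median of all genes, 1341 (3023 higher) with rescaling to genes other than small RNAs and 2174 (2213 higher) with quantile normalization. In the MTR4-null nucleus 1753 genes were lower (3417 higher), 1038 (2583 higher) with a filter at 5 FPKM, 2345 (2703 higher) with centring on the median of all genes, 2146 (2777 higher) with centring by the median log ratio, 2093 (2859 higher) with rescaling and 2517 (2416 higher) with quantile normalization.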

Other observations

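The mirror image of Btn1a1, Stk32a, Dclk1 and Dydc2, at 10 FPKM or more in both MTR4-null columns and under 1 FPKM in both WT columns, was held by 17 coding genes, of which 4 are named here after their values were seen. Pomc, the precursor gene of several peptide hormones, stood at 13.6 FPKM in MTR4-null nuclei and 0.211 FPKM in WT nuclei, and at 11.5 FPKM in MTR4-null cytoplasms and 0.863 FPKM in WT cytoplasms. Prmt6, an arginine methyltransferase gene, stood at 15.0 and 0.521 FPKM in the nuclei and at 14.6 and 0.104 FPKM in the cytoplasms, in the same order of genotypes. Six5, a homeobox gene, stood at 18.5 and 0.208 FPKM in the nuclei and at 15.1 and 0.225 FPKM in the cytoplasms. Tomm5, a subunit gene of the mitochondrial import pore, stood at 13.9 and 0.369 FPKM in the nuclei and at 12.3 and 0.111 FPKM in the cytoplasms.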
